A study of Mus musculus with 18 samples.

Results

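Matrix metalloproteases (MMPs), the ADAMTS proteases and their tissue inhibitors (TIMPs) were followed across sorted cells of the mouse aorta-gonad-mesonephros (AGM). Every gene whose symbol is Mmp, Adamts or Timp followed by its number was taken, which gave 46 of 21881 symbols: 23 MMP, 19 ADAMTS and 4 TIMP genes. All groups came from a C57BL6 BRE-GFP reporter strain at embryonic day 11, whose green fluorescent protein is driven by an element that responds to BMP. Cells labelled as endothelial (EC) were CD31 positive and c-Kit negative, those labelled as hematopoietic progenitor and stem cells (HPSC) were CD31 and c-Kit positive, and those labelled as mesenchymal (MC) lacked both. Each population was sorted from fresh tissue, from explant cultures and from explants to which cyclopamine, a blocker of Smoothened in the Hedgehog pathway, was given, and each was split into BRE-GFP positive and negative cells. This gave 18 combinations with 1 library each. No combination was repeated, so every test below judges an effect against the spread between combinations, and the labels do not say how many embryos went into a library.

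MMPs and ADAMTS are secreted or membrane-bound zinc proteases that cut collagens, proteoglycans and other matrix proteins and that release growth factors held there. Most are made as inactive proenzymes, and the TIMPs block the active enzymes by binding their catalytic site. In the embryonic aorta, progenitor cells leave a vessel wall that is lined by endothelium and surrounded by mesenchyme, tissues in which such proteases remodel the matrix.

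Of the 23 MMP genes, 10 lie side by side on chromosome 9 (chr9:7272514-7699585, GRCm38), in the order Mmp13, Mmp12, Mmp1b, Mmp3, Mmp1a, Mmp10, Mmp8, Mmp27, Mmp20 and Mmp7. Their promoters are shown because 8 of the 10 genes have a promoter that holds the AP-1 motif TGANTCA. Of the 22 other family genes with a promoter sequence, 0 do. Several of the cluster genes had most of their reads in explants. As a group, explant libraries were also the deepest and had the highest median of detected genes. The share of all genes with most reads in explants was not computed. Mmp12 and Mmp7 have 2 promoter sequences each, of which 1 holds the motif and is shown. The motif reads the same on both strands in its fixed letters and overlaps no other motif searched for. It occurred in 7.81% of all 32851 mouse promoters of 300 bases (250 before to 50 after the start, RefSeq, GRCm38.p6). By gene this was 2425 of 27025. A match describes letters only, not a bound site. In the windows below, read 5′ to 3′ along each gene, the capitals mark the motif.

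Mmp13, chr9:7272463-7272501, plus strand: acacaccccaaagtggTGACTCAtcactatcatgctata
Mmp12, chr9:7347314-7347352, plus strand: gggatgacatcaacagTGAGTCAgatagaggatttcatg
Mmp1b, chr9:7388097-7388135, minus strand: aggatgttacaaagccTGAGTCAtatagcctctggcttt
Mmp3, chr9:7445760-7445798, plus strand: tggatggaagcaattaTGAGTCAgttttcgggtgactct
Mmp1a, chr9:7464052-7464090, plus strand: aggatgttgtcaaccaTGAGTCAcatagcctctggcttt
Mmp10, chr9:7502263-7502301, plus strand: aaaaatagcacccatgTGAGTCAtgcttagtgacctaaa
Mmp20, chr9:7628120-7628158, plus strand: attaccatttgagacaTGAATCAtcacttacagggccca
Mmp7, chr9:7692011-7692049, plus strand: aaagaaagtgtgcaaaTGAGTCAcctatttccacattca

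The motif began between 35 bases (Mmp13) and 95 bases (Mmp20) before the start. It read TGAGTCA in 6 of the 8 windows, TGACTCA in Mmp13 and TGAATCA in Mmp20. The promoters of the remaining cluster genes, Mmp8 and Mmp27, did not hold these letters.

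Levels are given in CPM, a gene's count scaled to a common library size. Libraries held 3041249 to 21972063 counts on genes and 10297 to 18816 detected genes, and the fewest of both were in the cyclopamine-treated BRE-GFP negative HPSC. The share of reads outside annotated features moved with culture: explant libraries had 35.0 to 49.4%, compared with 21.7 to 42.0% of fresh and 19.5 to 33.0% of cyclopamine ones. Pecam1, which encodes CD31, was at 93.7 to 2682 CPM in EC and HPSC and at most 11.5 CPM in MC, while Kit was at 450 to 1135 CPM in HPSC and still at 20.9 to 220 CPM in EC and MC. Summed levels of 5 progenitor genes were 846 to 1755 CPM in HPSC and at most 500.4 CPM elsewhere, and 5 endothelial genes summed to 275 to 5572 CPM in EC and HPSC against 49.0 to 156 CPM in MC. Summed levels of 5 mesenchymal genes were 1370 to 4507 CPM in MC and 165 to 464 CPM in HPSC. In EC they were 502 and 863 CPM in fresh cells and 2698 to 4116 CPM in both explant cultures, and MC stood above EC in 5 of 6 blocks. In bulk cells of this kind, fewer cells of a type and less RNA per cell cannot be told apart.

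Family genes with at least 1 count numbered 17 to 45 per library. Of the 46 genes, 40 passed the filter on low counts (at least 0.796 CPM, which is 10 counts at the median library, in at least 3 libraries) and were tested. The 6 that did not pass were Adamts13, the protease of von Willebrand factor, the collagenases Mmp1a and Mmp1b, the stromelysin Mmp10, the matrilysin Mmp7 and the membrane-type Mmp24, with 2 to 36 counts each over all 18 libraries. A mean of at least 10 CPM in some population was reached by 26 genes, of which 8 were MMPs, 15 ADAMTS and 3 TIMPs.

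Per kilobase of exon, Timp3 had the highest mean level (82.6 CPM per kb over 18 libraries), followed by Mmp2 (62.9), Mmp11 (41.7), Timp1 (38.6), Adamts1 (15.9), Mmp14 (14.7) and Timp2 (14.5). The order changed with the population: Mmp2 stood above Timp3 in MC (88.7 against 84.7 CPM per kb), a gap far smaller than the spread over libraries, and below it in HPSC (28.2 against 60.8). Timp3 alone made up 57.8 to 98.1% of the summed TIMP level of a library, and Mmp2, Mmp11 and Mmp14 together 46.6 to 90.2% of the summed MMP level. The summed MMP level was 604 to 819 CPM in MC and 115 to 445 CPM in HPSC, 2 ranges that did not overlap, while EC spanned 231 to 809 CPM.

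**Figure D1:**
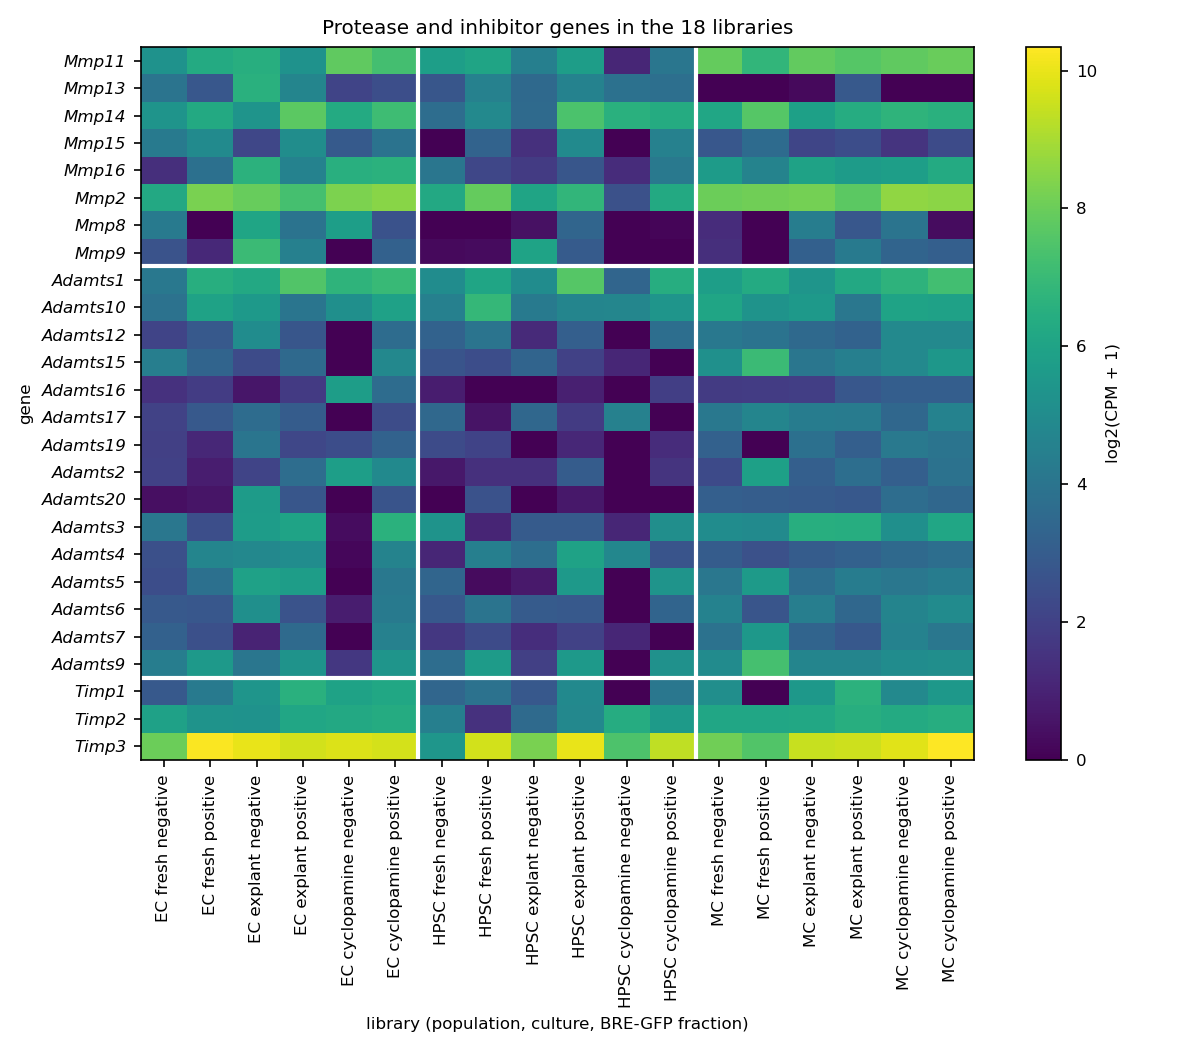
Levels of the 26 family genes with a mean of at least 10 CPM in a population, as log2(CPM + 1), with genes in rows (MMPs, ADAMTS, TIMPs) and the 18 libraries in columns. Timp3 is the brightest row in nearly every library, Mmp13 is dark in MC, and the cyclopamine-treated BRE-GFP negative EC and HPSC columns hold many genes at 0.

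Among the inhibitors, Timp3, which stays bound to matrix and also blocks several ADAMTS enzymes, was at 256, 847 and 1242 CPM (lowest, median and highest of 6 libraries) in EC, 42.0, 477 and 1010 CPM in HPSC and 182, 723 and 1298 CPM in MC. Timp2, which joins Mmp14 at the cell surface to activate proMmp2, was even across MC (68.0, 76.6 and 87.3 CPM) and spread widely in HPSC (1.80, 24.3 and 82.6 CPM). In EC it was at 37.2, 63.6 and 80.5 CPM. Timp1 was at 6.35, 51.1 and 94.8 CPM in EC, 0, 11.7 and 29.1 CPM in HPSC and 0, 39.1 and 98.8 CPM in MC, so the 3 populations overlapped for each of these inhibitors. Timp4 was scarce, at no more than 5.65 CPM in any library.

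The gelatinase Mmp2, which cuts denatured collagen and basement membrane collagen, was at 73.7, 274 and 359 CPM in EC, 4.90, 75.3 and 239 CPM in HPSC and 214, 282 and 390.0 CPM in MC. Its relative Mmp9 was lower per kilobase of exon (4.44 against 62.9 CPM per kb) and irregular, with medians of 6.77, 0.217 and 7.79 CPM in EC, HPSC and MC and a highest value of 131 CPM in BRE-GFP negative explant EC. Mmp14, the membrane-type protease that activates proMmp2, was at 39.5, 78.2 and 211 CPM in EC, 10.9, 54.2 and 167 CPM in HPSC and 57.1, 88.3 and 197 CPM in MC, ranges that lay largely on top of each other. Mmp16, also membrane-type, was at 1.64, 57.7 and 98.1 CPM in EC and 23.4, 52.4 and 79.0 CPM in MC but at 1.51, 4.70 and 16.9 CPM in HPSC. Mmp15 had its highest median in EC (3.56, 16.1 and 32.7 CPM), with 0, 5.26 and 29.6 CPM in HPSC and 1.92, 4.28 and 11.2 CPM in MC.

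Mmp11, also called stromelysin-3 and activated inside the cell by furin, was at 112, 230.4 and 250.4 CPM in MC, 38.1, 83.2 and 225 CPM in EC and 1.13, 37.5 and 65.2 CPM in HPSC. The collagenase Mmp13, known from cartilage and bone, had the opposite order of medians: 5.81, 13.2 and 22.9 CPM in HPSC, 3.38, 10.5 and 92.6 CPM in EC, and a count of 0 in 4 of 6 MC libraries. Its mean was higher in EC (24.5 CPM) than in HPSC (14.7 CPM). Mmp8, a collagenase stored in neutrophil granules, ranged from 0 to 66.8 CPM in EC, 0 to 9.42 CPM in HPSC and 0 to 19.7 CPM in MC.

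Of the ADAMTS genes that cleave aggrecan and versican, Adamts1 had the highest mean per kilobase of exon in all 3 populations (18.7, 13.3 and 15.6 CPM per kb in EC, HPSC and MC), and its level was 16.9, 97.1 and 185 CPM in EC, 9.43, 49.5 and 197 CPM in HPSC and 41.4, 76.1 and 146 CPM in MC. Adamts9 was at 2.21, 29.2 and 47.7 CPM in EC, 0, 24.1 and 50.7 CPM in HPSC and 25.2, 31.4 and 156 CPM in MC. Adamts15 was high in MC (15.5, 31.7 and 129.8 CPM) and lower in EC (0, 9.81 and 27.0 CPM) and in HPSC, where its highest value was 8.98 CPM. Adamts4 had the lowest median of the 3 populations in MC (7.61 CPM, against 24.4 in EC and 16.6 in HPSC), whereas Adamts5, its neighbour in substrate choice, was similar in EC and MC (medians of 14.9 and 17.7 CPM). Adamts20 was detected in every MC library (6.26 to 12.1 CPM) and had 0 counts in 4 of 6 HPSC libraries. Among the procollagen N-proteinases, which trim fibrillar procollagens, Adamts3 was at 29.6, 51.1 and 89.4 CPM in MC, 0.260, 34.0 and 95.8 CPM in EC and 1.08, 6.78 and 38.6 CPM in HPSC. Adamts2 had medians of 7.67, 1.67 and 10.1 CPM in EC, HPSC and MC. The genes that cleave cartilage oligomeric matrix protein, Adamts7 and Adamts12, had their highest medians in MC (15.1 and 15.4 CPM) and medians of 1.91 and 8.25 CPM in HPSC. Adamts10, a fibrillin-associated protease, was similar throughout, with medians of 40.2, 25.6 and 53.1 CPM. Adamts6, Adamts16, Adamts17 and Adamts19 had MC medians of 21.7, 4.39, 19.1 and 10.6 CPM, each above the HPSC median of the same gene (6.69, 0.387, 6.16 and 1.33 CPM).

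The 20 genes under 10 CPM in every population included, beside those not tested, the macrophage elastase Mmp12 (highest library 27.0 CPM), the leukocyte membrane-type Mmp25 (23.8 CPM), the procollagen protease Adamts14 (22.6 CPM), Adamts18 (27.4 CPM), Mmp19 (23.0 CPM) and Mmp23 (21.4 CPM). The highest library of any other gene in this set was the 15.1 CPM of Adamts8.

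HPSC and MC differed in 6 of the 40 tested family genes, against 9.95% of all 16231 tested genes (edgeR quasi-likelihood test within 6 blocks of matched culture and BRE-GFP fraction, adjusted p under 0.05). Mmp13 was higher in HPSC, where 4.10% of all genes were higher, and Mmp2, Mmp11, Mmp16, Timp2 and Adamts3 were lower, where 5.85% of all genes were lower. The median log2 difference of the 40 genes was -1.77, against -0.38 over all genes, and 5 of the 40 lay above 0. The share of all genes above 0 was not computed in this or the other comparisons.

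Mmp13 (chr9:7272514-7283331) was at 14.7 ± 6.81 CPM in HPSC (mean ± SD, n = 6 libraries) and at 1.10 ± 2.60 CPM in MC. All 6 HPSC libraries held reads, from 5.81 to 22.9 CPM, and in MC only the explant libraries did, with 6.40 CPM in BRE-GFP positive and 0.204 CPM (3 counts) in negative cells. HPSC were higher in 6 of 6 blocks, by 7.28 on the log2 scale (SE 1.58, adjusted p = 0.00768), although the 2 ranges overlap through the BRE-GFP positive explant MC. It was the single family call that held in all 18 fits that each left out 1 library, with log2 differences from 6.62 to 9.18. Many marker genes differed between the same libraries. In HPSC and MC, 6 macrophage genes summed to 366 to 3329 and 37.5 to 138 CPM, and 8 granulocyte genes to 819 to 10931 and 6.59 to 258 CPM. Endothelial, progenitor, and mast cell and eosinophil sums were also higher in HPSC in 6 of 6 blocks. The 8 chondrocyte and bone genes were lower in HPSC (34.6 to 86.3 CPM) than in MC (232 to 1473 CPM). Mesenchymal, smooth muscle, sympathetic and urogenital sums were lower in 6 of 6 blocks too. Their part in the difference was not tested.

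Mmp11 (chr10:75923222-75936496) was at 35.2 ± 26.0 CPM in HPSC and 209 ± 51.1 CPM in MC (n = 6 each), and the lowest MC library, 112 CPM, lay above the highest HPSC library, 65.2 CPM. The log2 difference was -2.55 (SE 0.70, adjusted p = 0.0293). Mmp16 (chr4:17852893-18119145) also kept its groups apart, with at most 16.9 CPM in HPSC and at least 23.4 CPM in MC (log2 difference -2.83, SE 0.79, adjusted p = 0.0318). Mmp2 (chr8:92827291-92853420) was lower in all 6 blocks, by -1.82 on the log2 scale (SE 0.55, adjusted p = 0.0445), but the fresh BRE-GFP positive HPSC, at 239 CPM, reached into the MC range.

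Timp2 (chr11:118301069-118355740) was at 32.2 ± 29.5 CPM in HPSC and 77.3 ± 8.52 CPM in MC, with a log2 difference of -1.77 (SE 0.54, adjusted p = 0.0467) and 5 of 6 blocks in that direction. The exception was the cyclopamine-treated BRE-GFP negative pair, with 82.6 CPM in HPSC and 79.6 CPM in MC. Adamts3 (chr5:89677087-89883334) was at 14.7 ± 16.9 CPM in HPSC and 56.6 ± 28.1 CPM in MC (log2 difference -3.06, SE 0.94, adjusted p = 0.0470), and its exception was the fresh BRE-GFP negative pair, with 38.6 against 31.7 CPM. The summed level of 5 mesenchymal genes differed in the same direction in 6 of 6 blocks (165 to 464 CPM in HPSC, 1370 to 4507 CPM in MC), and its part in these differences was not tested.

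**Figure D2:**
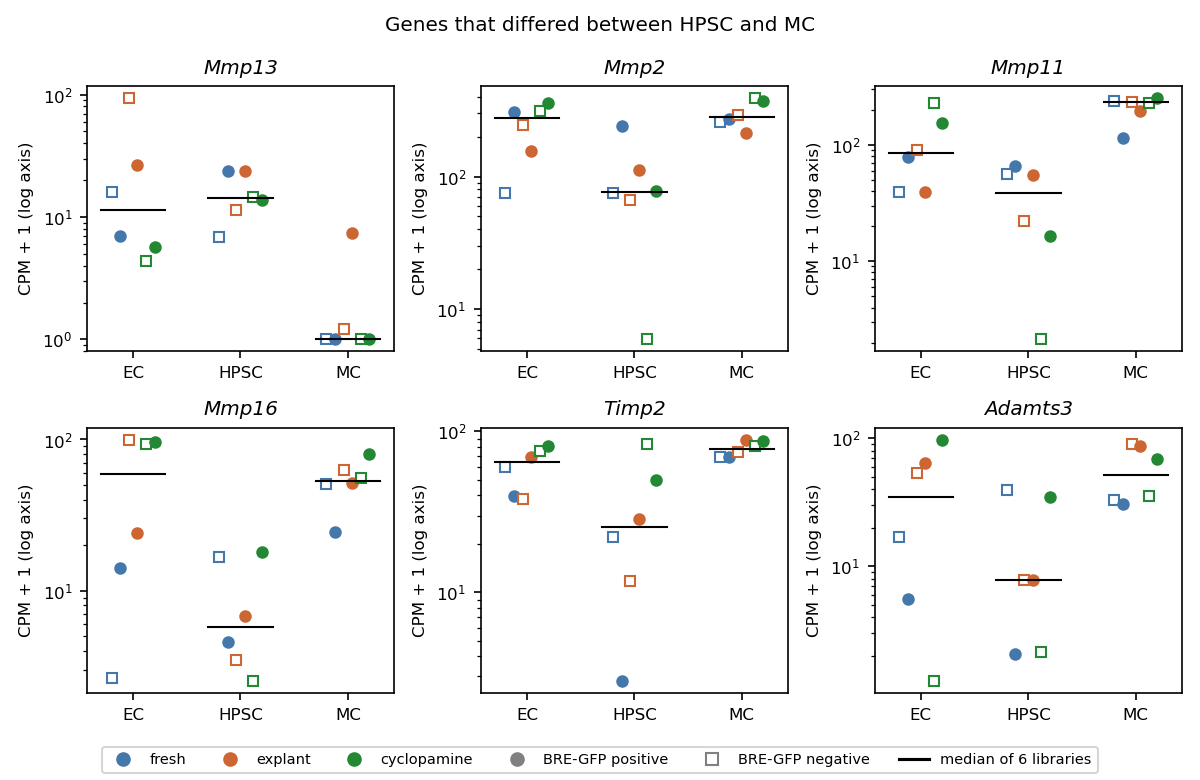
Levels of the 6 genes that differed between HPSC and MC, as CPM + 1 on a log axis, in the 6 libraries of each population. Colour gives the culture, filled circles are BRE-GFP positive, open squares BRE-GFP negative, and the bar is the median. Mmp13 sits at a CPM of 0 in 4 MC libraries, and for Mmp11 and Mmp16 the HPSC points lie below all MC points.

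The 5 lower calls depended on single libraries. The Mmp11 call was lost without the cyclopamine BRE-GFP positive or explant BRE-GFP negative HPSC, and without any MC library except the fresh BRE-GFP positive one (adjusted p of 0.0505 to 0.0871). The Mmp16 call held in the 7 fits without an EC library or without the fresh BRE-GFP negative HPSC and was lost in the other 11. Mmp2 passed in 6 fits, those without the fresh BRE-GFP negative, fresh positive or cyclopamine negative EC, the fresh positive or cyclopamine negative HPSC, or the fresh positive MC. Timp2 passed in 4 fits (without the fresh positive or cyclopamine negative EC, or the cyclopamine negative HPSC or MC), and Adamts3 in 5 (without the fresh negative or cyclopamine negative EC, the fresh negative HPSC, or the fresh negative or cyclopamine positive MC). Direction held in all of these fits, with log2 differences of -2.92 to -2.15 for Mmp11, -3.53 to -2.47 for Mmp16, -2.12 to -1.42 for Mmp2, -2.16 to -1.34 for Timp2 and -3.78 to -2.16 for Adamts3, and the highest adjusted p were 0.0868 for Mmp16, 0.123 for Mmp2, 0.131 for Timp2 and 0.156 for Adamts3. With the share of reads outside annotated features as a covariate, 0 of the 40 genes passed (Mmp13 adjusted p = 0.0593), beside 517 of all genes. Log2 differences in that fit kept their direction, at 7.47 for Mmp13, -2.97 for Mmp11, -3.93 for Mmp16, -1.82 for Mmp2, -1.97 for Timp2 and -3.45 for Adamts3.

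In all 6 blocks, 10 of 40 family genes were lower in HPSC than in MC, as were 10.8% of all genes. Those of the 10 that did not pass were Adamts2, Adamts7, Adamts15, Adamts16, Adamts18, Adamts20 and Mmp23. Adamts15 was the nearest of them to the threshold (log2 difference -3.57, adjusted p = 0.0732), and its lowest MC library, at 15.5 CPM, lay above its highest HPSC library, at 8.98 CPM. How many of all genes kept HPSC and MC apart in this way was not computed. By class, all 7 procollagen-processing, cartilage oligomeric matrix protein-cleaving and gelatinase genes tested had log2 differences below 0, as did 6 of 6 other ADAMTS genes, 5 of 5 membrane-type MMPs and 4 of 4 TIMPs. Differences above 0 were found for 3 of 7 other MMPs, 1 of 2 collagenases and 1 of 7 ADAMTS genes that cleave aggrecan and versican. The median over all genes was also below 0, at -0.38.

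Between MC and EC, Mmp13 was the 1 family gene that differed, and it was lower in MC, in a comparison in which 2.54% of all genes passed and 2.29% were lower. It was at 1.10 ± 2.60 CPM in MC and 24.5 ± 34.4 CPM in EC (n = 6 each), with a log2 difference of -6.96 (SE 1.55, adjusted p = 0.0198) and lower values in 6 of 6 blocks. The ranges met, since BRE-GFP positive explant MC (6.40 CPM) stood above both cyclopamine EC libraries (3.38 and 4.67 CPM) and the fresh BRE-GFP positive EC (6.04 CPM). The call was lost without the explant BRE-GFP negative EC (adjusted p = 0.0719) and without the fresh negative (0.0730), fresh positive (0.05002), cyclopamine positive (0.0649) or explant negative (0.0844) MC. The comparison shares the MC libraries with HPSC against MC. Next in order of p, and not passing, were Mmp8, with a log2 difference of -2.60 (adjusted p = 0.429), and Mmp23, with 4.18 (adjusted p = 0.446). Adamts15, Adamts17, Adamts18, Mmp11 and Timp2 were higher in MC than in EC in all 6 blocks, as were 5.83% of all genes, and Mmp13, Mmp15 and Mmp19 were lower in all 6, as were 4.97%. The median log2 difference was 1.22 for the 18 ADAMTS genes against 0.20 over all genes. Endothelial, progenitor, macrophage, granulocyte, mast cell and eosinophil, and megakaryocyte sums were lower in MC than in EC in 6 of 6 blocks. Smooth muscle and sympathetic sums were higher in 6 of 6, and chondrocyte and bone sums in 2 of 6. The part of these sums in the MC and EC values was not tested.

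HPSC and EC differed in 0 of the 40 family genes, where 0.320% of all genes passed. At an unadjusted p under 0.05, 8 family genes differed, among 1512 of all genes. DESeq2 called 4 family genes and 4.90% of all genes, and limma-voom 2 and 1.40%. The 3 genes of lowest p were lower in HPSC: Mmp8 with a log2 difference of -5.77 (SE 1.62, adjusted p = 0.199), Mmp16 with -2.65 (SE 0.86, adjusted p = 0.270) and Mmp2 with -1.40 (SE 0.55, adjusted p = 0.412). Without the fresh BRE-GFP negative EC library, whose Mmp16 level of 1.64 CPM was far below the median of EC, Mmp16 passed (log2 difference -3.21, adjusted p = 0.0495). The 40 genes had a median log2 difference of -1.17, against -0.17 over all genes, and 8 of 40 lay above 0. Mesenchymal, megakaryocyte, sympathetic and urogenital sums were lower in HPSC than in EC in 6 of 6 blocks. Progenitor and granulocyte sums were higher in 6 of 6. The granulocyte sum was at 819 to 10931 CPM in HPSC and 48.8 to 3294 CPM in EC, while the Mmp8 difference went the other way. The part of these sums in the values above was not tested.

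Other genes that activate, inhibit or share the work of these proteases were looked at in 8 lists, of which 51 genes were tested. Between HPSC and MC, 8 were higher in HPSC and 8 lower. Those higher were the urokinase gene Plau (log2 difference 4.90) and its receptor Plaur (3.32), the sheddases Adam10 (1.32) and Adam15 (3.22), the cathepsins Ctsb and Ctss, and the granule proteases Elane (7.72) and Prtn3 (6.32). Those lower were the procollagen C-proteinase Bmp1 (-1.97), the protease inhibitors Serpine2 (-2.30) and A2m (-5.12), the cathepsin Ctsk, the surface protease Fap (-7.35), the serine protease Htra1 (-5.76) and the proteoglycan substrates Vcan (-2.73) and Ncan (-8.77). Between MC and EC, 6 were lower in MC, namely Plau, Plaur and Serpinb2 of the plasminogen system together with Ctsb, Ctss and Elane, and 0 were higher. Between HPSC and EC, 1 passed, Fap, which was lower in HPSC by -5.25 on the log2 scale (SE 1.01, adjusted p = 0.0386). The remaining lists had no gene that passed in these comparisons; their genes of lowest p were Adam10, Adamtsl3, Bmp1, Serpine2, Spock2, Vcan and Jun for HPSC against EC, Adam10, Adamtsl5, Tll1, Furin, Ncan and Junb for MC against EC, and Adamtsl5 and Jun for HPSC against MC, with adjusted p from 0.0551 to 0.851.

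BRE-GFP positive and negative cells were compared in 9 pairs of the same population and culture. None of the 40 family genes passed (0 of 40, in a comparison in which 0.0554% of all genes did), while 5 family genes and 860 of all genes had an unadjusted p under 0.05, DESeq2 called 3 (Adamts1, Adamts9 and Mmp15, with 2.29% of all genes) and limma-voom 0 (0.450% of all genes). Of the 40 genes, 32 had a log2 difference above 0, with a median of 0.62 against 0.11 over all genes. The share of all genes above 0 was not computed. The summed ADAMTS level was higher in the BRE-GFP positive library of all 9 pairs, the summed MMP level in 7 and the summed TIMP level in 6. Adamts1, which had the highest mean of the ADAMTS genes (84.1 CPM) and was itself higher in all 9 pairs, is part of the ADAMTS sum.

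Adamts1, Adamts9 and Mmp15 were higher in the positive library of every pair, a pattern shown by 3 of 40 family genes and by 0.672% of all genes. Adamts1 (chr16:85793827-85803113), a versican-cleaving protease, was at 9.43, 41.4 and 106 CPM (lowest, median and highest of 9) in negative and 67.4, 88.2 and 197 CPM in positive cells. In HPSC its level went from 31.6 to 67.4 CPM in fresh, from 31.7 to 197 CPM in explant and from 9.43 to 85.5 CPM in cyclopamine cells, and the smallest step was in cyclopamine EC, from 106 to 123 CPM. The log2 difference was 1.38 (SE 0.36, adjusted p = 0.452) and lay between 1.17 and 1.54 in the fits without 1 library. Adamts9 (chr6:92772699-92943492), another versican-cleaving protease, was at 0, 15.5 and 31.8 CPM in negative and 25.2, 40.8 and 156 CPM in positive cells (log2 difference 2.26, SE 0.73, adjusted p = 0.657). Its pair of explant MC was a tie, at 25.2 CPM in both. Mmp15 (chr8:95352268-95375080), which was named for its 9 pairs after its values were seen, was at 0, 3.47 and 17.8 CPM in negative and 4.11, 14.5 and 32.7 CPM in positive cells, with a log2 difference of 2.47 (SE 1.03, adjusted p = 0.879).

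Mmp14 was the third of the genes of lowest p (log2 difference 1.18, SE 0.41, adjusted p = 0.740). It was higher in the positive library of 7 of 9 pairs, and cyclopamine HPSC (92.4 CPM in negative, 80.4 CPM in positive cells) and cyclopamine MC (104 and 92.8 CPM) were the exceptions. Of the 7 tested ADAMTS genes that cleave aggrecan and versican, 7 had log2 differences above 0, with a median of 1.29, as had 5 of 5 membrane-type MMPs. Mmp8 was the gene of largest difference the other way among those with a mean of 10 CPM in a population, at 0 to 66.8 CPM in negative and 0 to 14.4 CPM in positive cells (log2 difference -2.97, adjusted p = 0.9801).

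Since the reporter reads BMP signalling, promoters were also searched for GGCGCC, a palindrome bound by SMAD proteins, after the data were seen. It was present in 7 of 35 family promoters (6 of the 32 genes with a promoter) and in 11.9% of all promoters (3617 of 27025 genes). Adamts9 was among them and is shown as the only one of the 3 genes above that holds it, 183 bases before the start, with the motif in capitals, and the promoters of Adamts1 and Mmp15 did not hold these letters.

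Adamts9, chr6:92943696-92943733, minus strand: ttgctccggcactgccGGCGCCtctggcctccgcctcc

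Summed levels of cell type marker genes differed between the 2 fractions in the same pairs. Summed endothelial genes were higher in positive cells in 9 of 9 pairs (medians of 2279 and 302 CPM) and mesenchymal genes in 8 of 9 (2911 and 1370 CPM), while granulocyte genes were lower in 9 of 9 (124 and 2788 CPM). The part of these shifts in the values above was not tested.

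**Figure D3:**
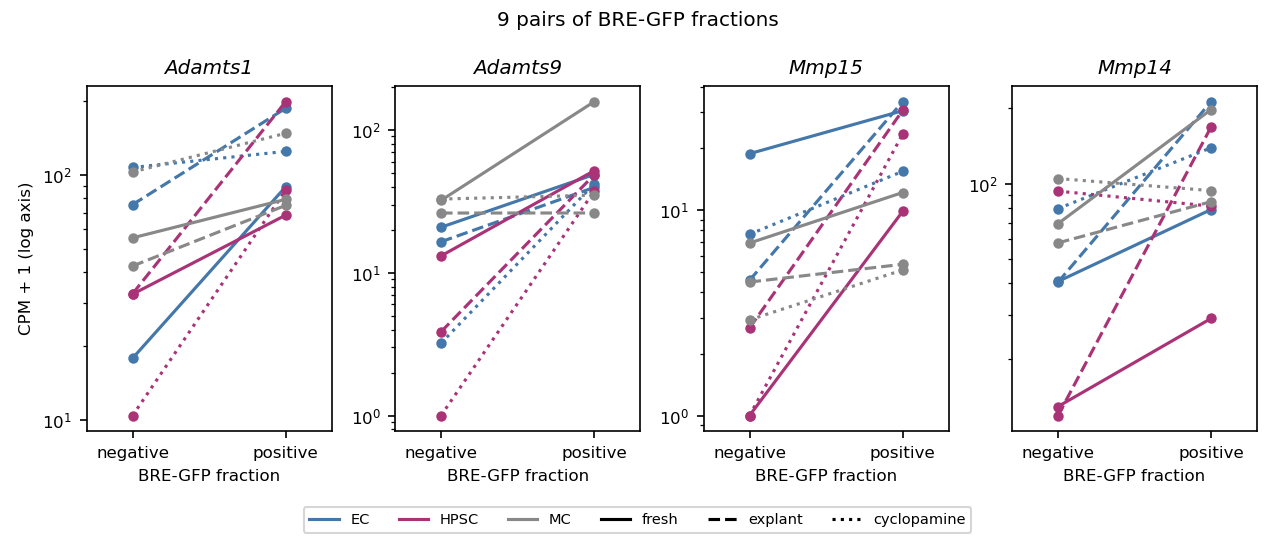
Levels of Adamts1, Adamts9, Mmp15 and Mmp14 in the 9 pairs of BRE-GFP negative and positive libraries, as CPM + 1 on a log axis, 1 line per pair with colour for the population and line style for the culture. Lines rise from left to right in all pairs for Adamts1, Adamts9 (flat in explant MC) and Mmp15, and in 7 of 9 for Mmp14.

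Within populations, 0 of the 40 genes passed for the BRE-GFP fraction in HPSC, EC or MC, where 0.0370%, 0.0123% and 0% of all genes did. In HPSC the median log2 difference was 2.16 over family genes and 0.23 over all genes, and 10 of 40 family genes had an unadjusted p under 0.05, as did 7.60% of all genes. Timp3 led these, at 42.0, 309 and 173 CPM in negative fresh, explant and cyclopamine HPSC and at 792, 1010 and 644 CPM in the positive ones (log2 difference 2.57, SE 0.59, adjusted p = 0.221). Adamts1 (log2 difference 2.30, adjusted p = 0.309) and Mmp15 (0, 1.67 and 0 CPM in negative, 8.86, 29.6 and 22.4 CPM in positive cells, adjusted p = 0.309) also had groups that did not overlap in HPSC. The share of all genes with such a gap was not computed, so it is not a result about these genes. In EC, the granule collagenase Mmp8 was at 17.6, 66.8 and 54.9 CPM in negative and 0, 14.4 and 5.04 CPM in positive cells (adjusted p = 1). The BRE-GFP effect itself was not shown to differ between populations for any family gene (0 of 40 passed, 0% of all genes, and Timp3 had an adjusted p = 1).

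Explant and fresh cells were compared within 6 blocks of the same population and BRE-GFP fraction. None of the 40 family genes passed (0 of 40, with 0.136% of all genes passing), 8 had an unadjusted p under 0.05, as did 1393 of all genes. DESeq2 called 4 family genes beside 487 of all genes, and limma-voom 1 beside 165. The genes of lowest p were the neutrophil collagenase Mmp8, the gelatinase Mmp9, which neutrophils and osteoclasts release, and the inhibitor Timp3, and for all 3 the explant mean was higher.

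Mmp8 (chr9:7558456-7568485) was at 0, 0 and 17.6 CPM (lowest, median and highest of 6) in fresh, 0.397, 11.9 and 66.8 CPM in explant and 0, 2.66 and 54.9 CPM in cyclopamine libraries. Every explant library stood above its fresh counterpart (log2 difference 5.93, SE 1.37, adjusted p = 0.129), yet fresh BRE-GFP negative EC, at 17.6 CPM, stood above 4 of 6 explant libraries. Mmp9 (chr2:164940780-164955850) was at 0, 0.749 and 5.25 CPM in fresh and 6.81, 19.8 and 131 CPM in explant libraries (log2 difference 5.31, SE 1.51, adjusted p = 0.239). Its highest explant values were both in BRE-GFP negative cells, with 131 CPM in EC and 63.9 CPM in HPSC. Timp3 (chr10:86300372-86349506) was at 42.0, 265 and 1242 CPM in fresh and 309, 769.8 and 1015 CPM in explant libraries, with 5 of 6 blocks higher in explants (log2 difference 1.20, SE 0.43, adjusted p = 0.359).

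Granulocyte genes followed Mmp8 in part. Ltf, which encodes lactoferrin, was at 80.0, 275 and 310 CPM in the fresh, explant and cyclopamine BRE-GFP negative EC, where Mmp8 was at 17.6, 66.8 and 54.9 CPM, and Ngp at 359, 646 and 898 CPM. In the same libraries Camp (216, 122 and 109 CPM) and Mpo (1416, 1001 and 789 CPM) went the other way, as did the sum of all 8 genes (3294, 2788 and 2703 CPM). BRE-GFP negative explant and cyclopamine MC, the highest MC libraries for Mmp8 (19.7 and 14.7 CPM), held 46.4 and 30.0 CPM of Ltf. The 8 granulocyte genes summed to a median of 471 CPM in fresh, 1164 CPM in explant and 884 CPM in cyclopamine libraries and were higher in explants in 5 of 6 blocks, the exception being BRE-GFP negative EC. The highest sum of all, 10931 CPM with 9621 CPM of Mpo and 543 CPM of Elane, was in explant BRE-GFP negative HPSC, where Mmp8 was at 0.397 CPM. Defining genes were at 0 in some libraries, such as Ltf and Lcn2 in both fresh HPSC fractions. Mmp9 did not follow the same libraries throughout, with 0 counts in cyclopamine BRE-GFP negative EC and 63.9 CPM in explant BRE-GFP negative HPSC, where Ltf was at 7.23 CPM. The part of granulocytes in the Mmp8 and Mmp9 values was not tested.

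**Figure D4:**
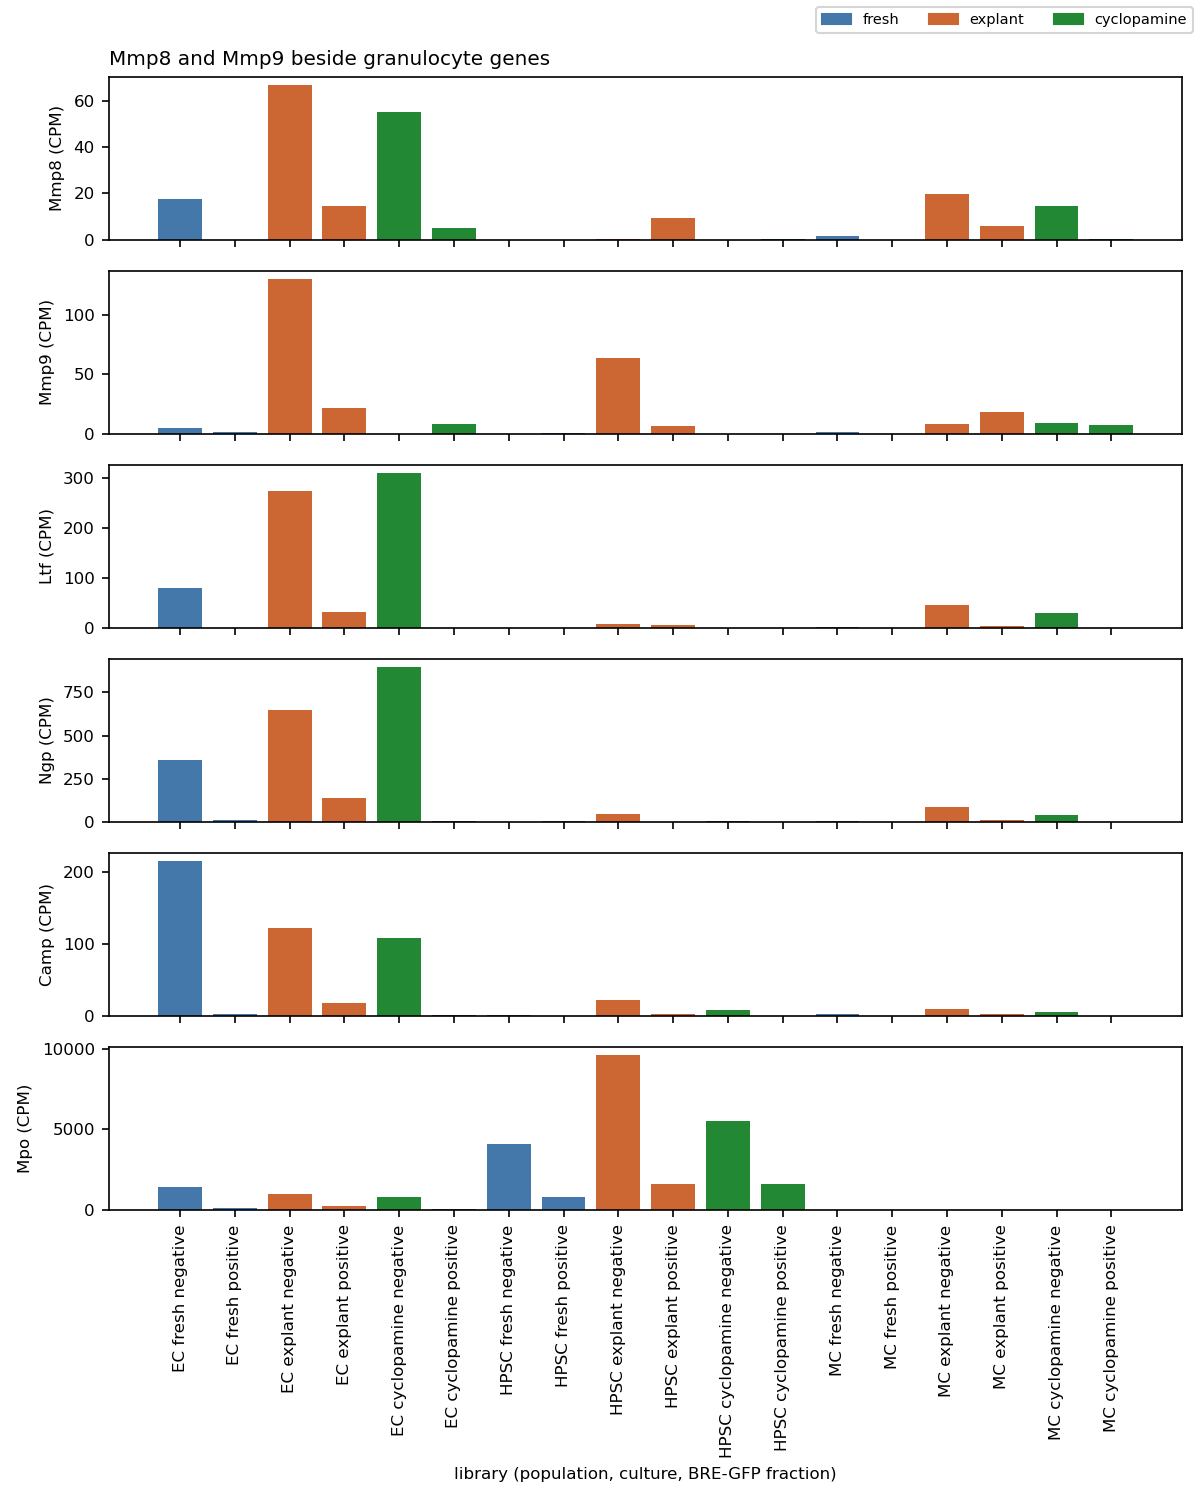
CPM of Mmp8, Mmp9 and the granulocyte genes Ltf, Ngp, Camp and Mpo in the 18 libraries, coloured by culture, 1 bar per library and a separate axis from 0 for each gene. Mmp8, Ltf and Ngp share their 2 highest bars, explant and cyclopamine BRE-GFP negative EC, whereas Camp is highest in fresh BRE-GFP negative EC, Mpo in explant BRE-GFP negative HPSC, and Mmp9 in explant BRE-GFP negative EC and HPSC.

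Most genes of the chromosome 9 cluster had most of their counts in explants. Explant libraries also detected more genes of any kind (median 18243, against 14808.5 in fresh and 13814.5 in cyclopamine libraries). The share of all genes with most counts in explants was not computed. Of the 2214 Mmp13 counts, 1469 came from explant, 481 from fresh and 264 from cyclopamine libraries, from total depths of 77717629, 64375173 and 73343306 counts. For the stromelysins Mmp3 and Mmp10 the shares were 79 of 82 and 19 of 21 counts in explants, and both genes had 0 counts in all 6 cyclopamine libraries. Mmp12 had 387 of 602, Mmp20 43 of 69 and Mmp8 1112 of 2045 counts in explants. The exceptions were Mmp1a (2 fresh, 3 explant and 4 cyclopamine counts), Mmp7 (0, 6 and 6) and Mmp27, with 151 of 249 counts in cyclopamine libraries, nearly all from BRE-GFP positive HPSC at 13.7 CPM. Levels were low outside Mmp13, Mmp12, Mmp8 and Mmp27: no library exceeded 2.18 CPM of Mmp3, 1.56 CPM of Mmp20 or 0.557 CPM of Mmp10, and Mmp1a, Mmp1b and Mmp7 had 9, 2 and 12 counts in all. Of the promoters printed above, those of Mmp13, Mmp12, Mmp3, Mmp10 and Mmp20 hold TGANTCA and belong to genes with most reads in explants. Those of Mmp1a and Mmp7 hold it too without most reads in explants, and that of Mmp8, which had most of its reads there, lacks it.

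Mmp13 was higher in the explant library of 6 of 6 blocks (log2 difference 2.83, SE 1.12, adjusted p = 0.438), from 14.9 to 92.6 CPM in BRE-GFP negative EC and from 0 to 6.40 CPM in BRE-GFP positive MC. The hypertrophic cartilage gene Col10a1 was seen in explants too, at 15.5 and 12.4 CPM in the EC fractions, 6.89 CPM in BRE-GFP positive MC and at most 0.943 CPM in any fresh library, and the bone gene Ibsp reached 33.3 CPM in BRE-GFP positive explant EC but was at 0 in the BRE-GFP negative explant EC, which had the most Mmp13, and in BRE-GFP negative explant HPSC (Mmp13 at 10.5 CPM). The 8 chondrocyte and bone genes summed to 2561 and 34.6 CPM in these 2 libraries and were higher in explants in 5 of 6 blocks. Their part in the Mmp13 values was not tested. Fos, a subunit of AP-1, had a mean of 508 CPM in explant and 198 CPM in fresh libraries (log2 difference 1.38, SE 0.34, adjusted p = 0.166). With cyclopamine its mean was higher still, at 849 CPM (log2 difference from explants 0.78, adjusted p = 0.519, higher in 5 of 6 blocks). Mmp3, Mmp10 and Mmp13 had fewer counts there than in explants. Fos is 1 of 6 AP-1 genes tested, of which 0 passed in either comparison. Their median log2 difference was 0.63 for explants against fresh cells and 0.43 for cyclopamine against explants. The part of AP-1 in the MMP values was not tested.

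**Figure D5:**
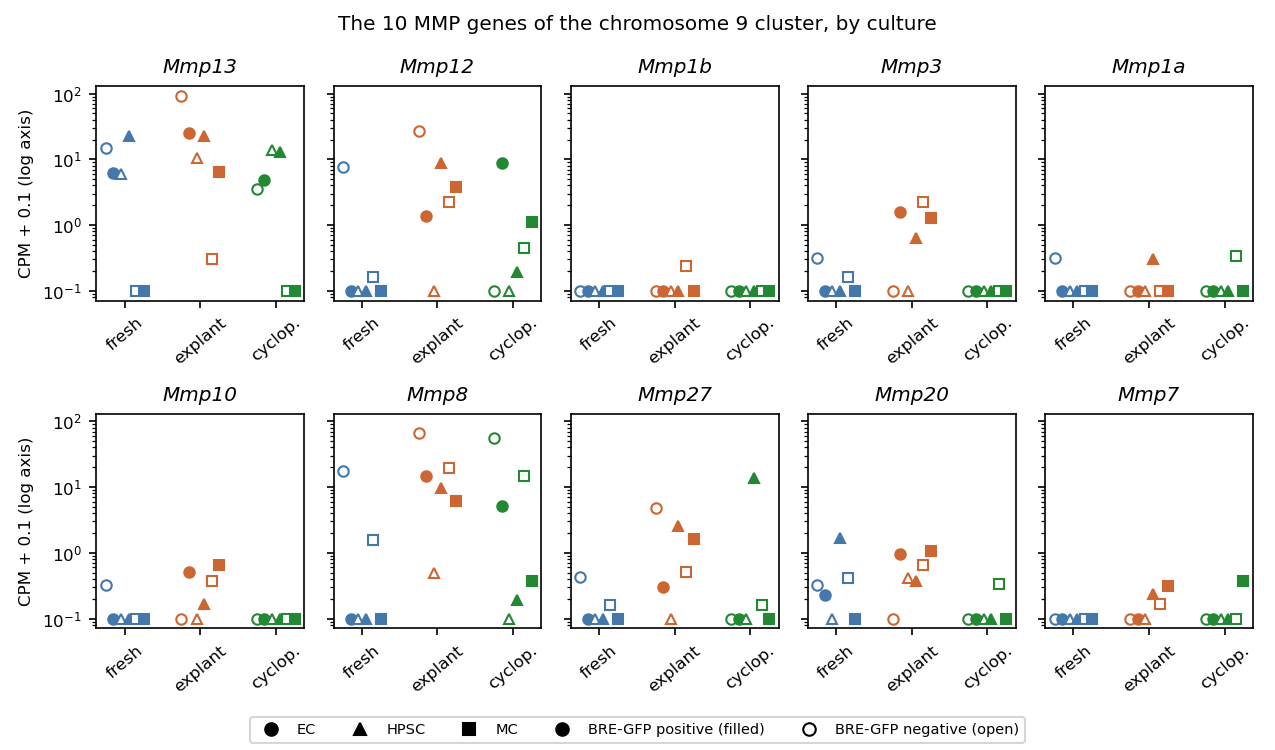
Levels of the 10 chromosome 9 MMP genes, in their order along the chromosome, by culture, as CPM + 0.1 on a log axis with 1 point per library. Marker shape gives the population and filled markers are BRE-GFP positive. Points at the bottom have a count of 0, and Mmp3 and Mmp10 have no count in any cyclopamine library.

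Adamts4 was also higher in explants in 6 of 6 blocks, while Adamts18 and Adamts9 were lower in 6 of 6. With Mmp8, Mmp9 and Mmp13 this made 4 of 40 family genes higher and 2 of 40 lower in every block, against 5.72% and 3.02% of all genes. Adamts18 was at 3.71 to 27.4 CPM in fresh and 0 to 3.06 CPM in explant libraries (log2 difference -2.92, adjusted p = 0.501), and it stayed at no more than 0.859 CPM with cyclopamine. Within populations the explant effect passed for 0 of 40 family genes in HPSC, EC and MC, where 0%, 0.00616% and 0% of all genes passed, and its difference between populations for 0 of 40 (0% of all genes).

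Cyclopamine-treated and untreated explants differed in 0 of the 40 family genes and in 0% of all genes. At an unadjusted p under 0.05, 7 family genes and 1319 of all genes differed, DESeq2 called 1 (Mmp13, with 1.06% of all genes) and limma-voom 0 (0.191% of all genes). The genes of lowest p were all from the chromosome 9 cluster and lower with cyclopamine. For Mmp3 and Mmp20 the filter on low counts favoured this direction, because no cyclopamine library reached its level. Their highest cyclopamine values were 0 CPM for Mmp3 and 0.233 CPM for Mmp20. Each was tested in only 15 of the fits that left out 1 library. Their place in this order is therefore not evidence of a cyclopamine effect. Mmp3 had 79 counts in explants and 0 with cyclopamine (adjusted p = 0.358). This is at least 24.9-fold lower when 3 counts over the group are taken as the floor. The bound covers counting error only, and not the choice of genes by the filter. Mmp13 went from a mean of 26.3 ± 33.9 CPM to 5.73 ± 6.05 CPM (n = 6 each) and was lower in 5 of 6 blocks (log2 difference -3.25, SE 1.20, adjusted p = 0.435). Its exception was BRE-GFP negative HPSC, at 10.5 CPM in explant and 13.6 CPM in cyclopamine cells. The enamel protease Mmp20 had 43 counts in explants and 4 with cyclopamine (log2 difference -4.25, adjusted p = 0.465), a difference that turned to 1.20 with the share of reads outside annotated features as a covariate. Mmp8 was the 1 family gene of 40 that was lower in 6 of 6 blocks (log2 difference -2.86, adjusted p = 0.512), as were 4.66% of all genes.

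The cyclopamine effect passed for 0 of 40 family genes within HPSC, EC and MC (0% of all genes in each), and the test of its difference between populations for 0 of 40 (0% of all genes). In HPSC, Mmp11 was at 21.2 and 53.8 CPM in untreated and 1.13 and 15.5 CPM in cyclopamine-treated negative and positive cells, whereas in EC it was at 88.3 and 38.1 CPM and at 225 and 151 CPM, with an adjusted p = 1 for the difference between populations. The 1.13 CPM came from the library of fewest counts, in which 1 CPM was 2.65 reads, so it rests on very few reads. Granulocyte sums were lower with cyclopamine in 6 of 6 blocks, and the share of reads outside annotated features was lower as well. Their part was not tested.

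None of the 51 related genes passed in the BRE-GFP, explant or cyclopamine comparisons. The genes of lowest p in each list were Adam12, Adamtsl1, Bmp1, Serpine2, Lrp1, Elane, Hspg2 and Fosl2 for BRE-GFP (adjusted p of 0.121 to 0.9999), Adam8, Adamtsl5, Mep1a, Plaur, Spock3, Ctsl, Ncan and Fos for explants (0.166 to 0.772), and Adam10, Papln, Mep1a, Serpinb2, Lrp1, Elane, Ncan and Fos for cyclopamine (0.358 to 0.869). Of these, the sheddase Adam12 was higher in BRE-GFP positive cells in 9 of 9 pairs (log2 difference 1.86), the elastase Elane was lower in 9 of 9 (-3.79), and the urokinase receptor Plaur was higher in explants in 6 of 6 blocks (2.10).

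Exons of some family genes lie on the other strand of a neighbour's exons, and whether reads were counted by strand is not given in the sources used here. Timp3 shares 1733 exon bases with Syn3, Mmp12 shares 157 with Mmp1b, and Mmp11 shares 155 with Chchd10 (GENCODE M21). Reads of these stretches cannot be assigned to 1 gene of each pair from the deposited counts.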

How the data were processed

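Per the labels' protocols, the RNA was made with a mirVana kit and the SMARTER protocol. The authors deposited 18 tables of raw counts, with 1 row per gene symbol and 1 table per library. TopHat, Cufflinks, HTSeq and the mm10 build appear in the submitters' processing notes; tool versions, annotation and strandedness were not given in the sources used here. Lines that name no gene were left out of library sizes, and reads outside annotated features were 19.5 to 49.4% of the reads counted on genes, as ambiguous or as at no feature.

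The main test was the quasi-likelihood F test of edgeR 4.0.16 (R 4.3.3), with TMM scaling, on 16231 genes with at least 0.796 CPM in at least 3 libraries, and p-values were adjusted by Benjamini-Hochberg over all of them. Populations and cultures were each compared within 6 blocks (10 residual degrees of freedom), BRE-GFP fractions within 9 pairs (8), and effects within a population in 1 model (6). Scripts were tested on simulated data. Levels are CPM on TMM-scaled library sizes, and SD is over libraries of differing culture and fraction, so p-values measure the spread between such combinations and not between repeats.

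Members and lists were chosen with earlier results of these data known. Per comparison, up to 8 family genes each way with an adjusted p under 0.05 were named, or the 3 of lowest p where fewer than 3 passed, and levels were described for genes with a mean of 10 CPM in a population. Of related lists, up to 4 genes that passed, or the 1 of lowest p, were named; Ctsb, Ctss and Ctsk between HPSC and MC, and Mmp15, Fos and the genes counted in every block were added after their values were seen. Promoters are from RefSeq (GRCm38.p6; 32 of 46 genes matched), gene positions from GENCODE M21 (46 matched). A second motif, GGCGCC, was searched after the data were seen. Alternatives were relative log expression size factors, no filter on low counts, DESeq2 1.42.0, limma-voom (limma 3.58.1), a covariate, and leaving out each library, and leaving out the library of fewest detected genes in each population (3 in all), which was added after the data were seen.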

Additional observations from a re-analysis of the deposited data

Results flagged for a closer look

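In 17 of 78 groups of 6 libraries (26 genes in 3 populations), 1 library stood far above the rest, with a gap to the next value of more than 0.625 of the whole range. A rate of about 1 in 20 groups for this cut holds for normally distributed values, whereas CPM values are skewed. How often it is passed without any true outlier was not tested here, and the libraries of a group differ in culture and fraction. Fresh BRE-GFP positive MC, which had 4547062 counts and 12028 detected genes, held 5 of these values: Adamts2 at 58.3 CPM (next 14.1), Adamts5 at 48.9 CPM (next 19.6), Adamts9 at 156 CPM (next 33.9), Adamts15 at 129.8 CPM (next 43.3) and Mmp14 at 197 CPM (next 104). Explant BRE-GFP negative EC held Mmp9 at 131 CPM (next 21.5), Mmp13 at 92.6 CPM (next 25.4), Adamts20 at 50.8 CPM (next 5.85) and Adamts12 at 31.6 CPM (next 11.7), and the cyclopamine BRE-GFP negative EC held Adamts16 at 53.0 CPM (next 11.5).

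Among HPSC, the fresh BRE-GFP positive library held Adamts10 at 119 CPM (next 41.2) and Adamts20 at 5.15 CPM (next 0.601). Explant BRE-GFP negative HPSC had Mmp9 at 63.9 CPM (next 6.81), explant positive HPSC had Mmp8 at 9.42 CPM (next 0.397) and Adamts2 at 7.01 CPM (next 1.91), and cyclopamine positive HPSC had Adamts16 at 2.73 CPM (next 0.868). In MC, Mmp13 was at 6.40 CPM in explant BRE-GFP positive cells (next 0.204).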

How the results depend on the processing

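No paired analysis was possible because the labels give no replicate numbers shared between groups and each combination has 1 library; this concerns pairing by replicate number, and the main fits do pair libraries by matched population, culture and fraction. Depth limited the low genes most: 1 CPM was 2.65 to 22.1 reads in a library. Of 396 counts of family genes under the alternatives, 366 stayed within 1.5 times the main count and 30 did not. Only MC against EC and HPSC against MC had a main count above 0. Elsewhere a count of 0 that stayed at 0 was scored as unchanged, so the 366 say little about stability. For HPSC against MC, with 6 calls in the main fit, the alternatives gave 0 to 14. DESeq2 called 4 genes for HPSC against EC, 2 for MC against EC, 14 for HPSC against MC, 3 for BRE-GFP, 4 for explant and 1 for cyclopamine, where edgeR called 0, 1, 6, 0, 0 and 0. It also called more of all genes (795, 1245, 3579, 371, 487 and 172 of 16231 in that order). Limma-voom called 2, 2, 12, 0, 1 and 0 family genes beside 228, 781, 2872, 73, 165 and 31 of all genes. With a covariate for reads outside annotated features, HPSC against MC had 0 calls, and without the 3 libraries of fewest detected genes MC against EC had 0. The log2 differences of the 6 genes called between HPSC and MC kept their direction under the covariate. That of Mmp13 between MC and EC was -6.03 without the 3 libraries. With no filter on low counts, the BRE-GFP fraction within HPSC had 1 call. Leaving out 1 library at a time gave 0 to 1 calls for HPSC against EC (1 without fresh BRE-GFP negative EC), 0 to 1 for MC against EC, 1 to 7 for HPSC against MC, and 0 to 1 for cyclopamine within HPSC (1 without cyclopamine BRE-GFP positive HPSC). Of the fold changes of named genes, 414 kept direction and side of the threshold, 72 kept direction but lost the call, 11 gained one, and that of Mmp20 with cyclopamine turned to 1.20 under the covariate. Causes were not tested.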
